A study of Mus musculus with 2 samples.

Results

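The microRNA genes from Mir379 to Mir3072, which include Mir410, lie head to tail in the Dlk1-Dio3 imprinted domain of mouse chromosome 12. They were chosen by position alone: every plus-strand microRNA gene row inside chr12:109709000-109748100 (GRCm38, which mm10 also denotes), which gave 34 of the 1973 gene rows. Their levels were measured by sequencing of short RNA (microRNA-seq) from hindbrain tissue of B6NCrl mouse embryos at embryonic day 13.5, healthy, with male and female embryos pooled. There were 2 libraries of this 1 group, numbered as biological replicates 1 and 2 in the labels. They share a donor identifier and have separate biosample identifiers. Separate litters are not stated, and part of the spread between the libraries may therefore be technical. With 1 group there is no comparison of conditions and no test. The unit of level is CPM, a gene's counts per 1000000 counts summed over all gene rows of that library, with the mean ± SD over both libraries.

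A microRNA is cut from one side of a folded RNA hairpin, and each hairpin has a 5p and a 3p side, called arms. The seed, bases 2 to 8 of the mature microRNA, pairs with target messenger RNAs and largely sets which ones are repressed. The hairpins of this cluster are expressed from the maternally inherited chromosome together with the long non-coding RNAs Meg3, Rian and Mirg, and are thought to be cut from long shared precursors. Many are known from brain, where the transcription factor Mef2 drives the cluster in active neurons and single members act on dendrites, synapses and neural progenitors.

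The mature sequences of the 12 members with the highest mean levels are shown first because these members supplied 95.2% ± 0.0677 of the cluster's counts. They are the arms that the RefSeq table holds on GRCm38.p6, written 5′ to 3′ in falling order of level, with the seed in capitals.
miR-487b-5p: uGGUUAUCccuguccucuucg
miR-369-5p: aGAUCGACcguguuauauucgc
miR-369-3p: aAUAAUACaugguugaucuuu
miR-382-5p: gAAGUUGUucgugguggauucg
miR-382-3p: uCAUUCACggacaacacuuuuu
miR-411-5p: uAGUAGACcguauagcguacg
miR-411-3p: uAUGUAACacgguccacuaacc
miR-381-5p: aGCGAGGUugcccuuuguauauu
miR-381-3p: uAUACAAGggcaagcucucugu
miR-541-5p: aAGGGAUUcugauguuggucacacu
miR-541-3p: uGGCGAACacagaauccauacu
miR-379-5p: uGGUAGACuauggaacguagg
miR-379-3p: uAUGUAACaugguccacuaacu
miR-134-5p: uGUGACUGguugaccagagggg
miR-134-3p: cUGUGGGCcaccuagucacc
miR-154-5p: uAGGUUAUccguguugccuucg
miR-154-3p: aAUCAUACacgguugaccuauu
miR-323-5p: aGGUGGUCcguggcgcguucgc
miR-323-3p: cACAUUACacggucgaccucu
miR-300-5p: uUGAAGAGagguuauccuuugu
miR-300-3p: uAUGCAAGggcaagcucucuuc
miR-543-5p: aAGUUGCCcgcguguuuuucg
miR-543-3p: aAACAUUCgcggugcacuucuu
The deposited counts are per hairpin and do not separate the arms, so no level can be given to an arm. miR-381-3p and miR-300-3p are alike in 19 of 22 bases and differ within the seed.

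The RefSeq table listed 61 mature arms for 33 of the members. It lists 1 arm each for Mir487b, Mir376c, Mir539, Mir485 and Mir453, and none for Gm27379, so counts of seeds are over the listed arms. Of these, most had a seed of their own: there were 56 different seeds, and 10 arms of 9 members shared 5 of them. The partners of these pairs that are not shown above are given here, with the seed in capitals.
miR-1193-5p: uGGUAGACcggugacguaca
miR-1197-5p: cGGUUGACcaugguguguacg
miR-758-5p: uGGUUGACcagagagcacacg
miR-494-5p: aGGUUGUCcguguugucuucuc
miR-410-5p: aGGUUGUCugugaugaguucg
miR-453: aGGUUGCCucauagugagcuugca
miR-496a-5p: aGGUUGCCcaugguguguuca
The seed GGUAGAC was shared by miR-379-5p and miR-1193-5p, and AUGUAAC by miR-379-3p and miR-411-3p, which are alike in 20 of 22 bases. The seed GGUUGAC was shared by miR-1197-5p and miR-758-5p, GGUUGUC by miR-494-5p and miR-410-5p, and GGUUGCC by miR-453 and miR-496a-5p. Hairpins with a shared seed did not stand at one level, while the levels of the arms themselves were not measured. The hairpin of Mir379 was 2.68-fold and 3.21-fold above that of Mir1193 in replicates 1 and 2. Mir411 was 2.90-fold and 2.61-fold above Mir379. Mir758 was 28.8-fold and 25.9-fold above Mir1197, which had only 5 and 7 counts. Mir494 and Mir410 were closest, at 1.40-fold and 1.39-fold. A further 11 arms had a seed that is also found in a microRNA outside the 34 rows, among them miR-410-3p with miR-344d-3p and miR-344e-3p, and miR-329-3p with miR-362-3p.

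Other members shared a stretch of sequence at different places in the arm. The letters GGUNGACC, with N for any base, were found in 7 of the 61 cluster arms (11.5%) and in 8 of all 1738 mouse mature arms in the RefSeq table (0.460%). The 7 arms are shown to let the place of the stretch be compared, here with the stretch and not the seed in capitals.
miR-1197-5p: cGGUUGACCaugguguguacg
miR-758-5p: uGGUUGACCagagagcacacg
miR-1193-5p: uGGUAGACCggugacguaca
miR-412-5p: uGGUCGACCagcuggaaaguaau
miR-134-5p: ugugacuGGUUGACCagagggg
miR-323-3p: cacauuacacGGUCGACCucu
miR-154-3p: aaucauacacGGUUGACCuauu
The stretch began at base 2 in 4 of these arms, at base 8 in miR-134-5p and at base 11 in miR-323-3p and miR-154-3p. The eighth arm in the table was miR-380-5p, whose gene lies in the same window but has no row in the count tables. A second stretch, ACACGG, was found in 5 cluster arms (8.20%) against 7 of all arms (0.403%). Both stretches were chosen after the sequences were seen and were searched only on the strand of the RNA. GGUNGACC overlaps the shared seeds GGUAGAC and GGUUGAC. Both counts are descriptions and name no binding factor.

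Replicate 1 held 3006571 counts in gene rows and replicate 2 held 4508244. The tissue label was checked against marker microRNAs. Mir10a and Mir10b, which lie in the Hox clusters active in hindbrain and spinal cord, summed to 109408 CPM in replicate 1 and 132876 CPM in replicate 2. Of 8 neural rows 4 were detected, with sums of 7923 and 8057 CPM. Mir137 supplied most of this, at 6207 ± 105 CPM. The other detected rows were Mir128-1 at 699 ± 33.9, Mir9-3 at 573 ± 65.5 and Mir128-2 at 500 ± 45.4 CPM. The 3 Mir124a rows and Mir9-2 were at most 5.10 CPM, and reads that map to several places, as those of multi-copy microRNAs do, had been left out of the counts. Mir126a, an endothelial microRNA, had 20540 and 18917 CPM. The erythroid rows Mir451a and Mir144 summed to 173 and 78.3 CPM, and both were detected. Of 5 muscle rows only Mir206 was detected, with list sums of 32.9 and 65.2 CPM. Mir1a-1, Mir133a-1 and Mir133a-2 were at 0, but Mir1a and Mir133a are multi-copy too, so this does not show absence. The liver row Mir122 had 36.9 and 42.8 CPM. In bulk tissue, fewer cells of a type and less RNA per cell cannot be told apart.

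The cluster was set against all counts in gene rows. Multimapping reads were left out of these, so its share is not one of the whole microRNA pool. Its members summed to 59753.5 CPM in replicate 1 (179653 counts, exact Poisson 95% interval 59477.5 to 60030) and 54142 CPM in replicate 2 (244084 counts, 53927 to 54357), a mean of 56948 ± 3968 CPM. This was 5.69% ± 0.397 of all gene counts, with 5.98% in replicate 1 and 5.41% in replicate 2. The intervals, which cover counting error only, did not overlap, so the spread between the libraries was larger than counting error. Of the 34 members 30 reached at least 10 counts in each library and were called detected, against 356 of 1973 rows (18.0%) over all genes. This minimum equals 3.33 CPM in replicate 1 and 2.22 CPM in the deeper replicate 2. The median level of the detected members was 251 CPM and that of all detected genes 166 CPM, and 17 of the 30 were above the latter. By mean level, 4 members were among the 50 highest of all genes and 10 among the 100 highest. For scale, the 6 hairpins of the Mir17hg precursor held 5.70% of gene counts, and Mir10a and Mir10b together 12.1%. With all reads as the denominator the share of the cluster was 2.75%.

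The levels of the detected members ran over more than 3 orders of magnitude. Mir487b was the highest and supplied 40.5% ± 1.85 of the cluster's counts. The 3 highest together supplied 64.3% ± 0.691 and the 6 highest 84.1% ± 0.680. At 1000 CPM or more stood 9 members, with 51958 CPM in sum, 13 lay between 100 and 1000 CPM with 4553 CPM, and 8 lay below 100 CPM with 434 CPM. A sequenced short RNA is read whole, so the counts are not divided by length. How well each RNA is ligated and amplified also enters a count, and its part in the order of the levels was not tested.

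**Figure D1:**
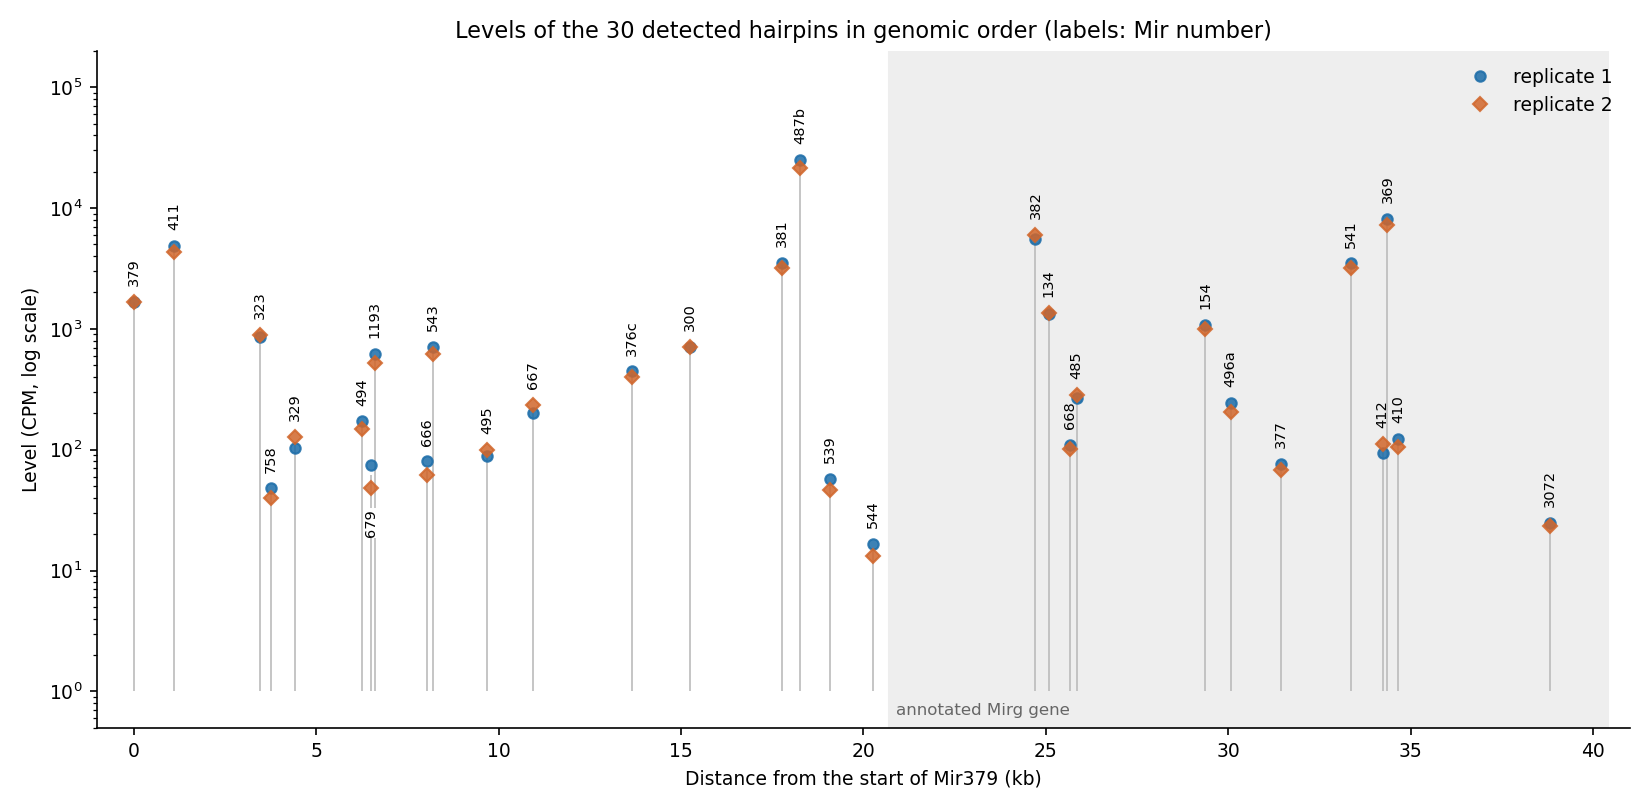
Level (CPM, log scale) of the 30 detected hairpins against distance from the start of Mir379 in kb, with circles for replicate 1, diamonds for replicate 2 and a shaded span for the annotated Mirg gene. Among the drawn hairpins alone, levels rise step by step from Mir495 to Mir487b. The drawing leaves out Mir654, with 0 counts, and genes without a row. Mir654 and the Mir376a locus both lie between Mir376c and Mir300, so the rise is not one of all genes there. The Mir376a locus had 3422 ± 206 CPM in the opposite-strand column. Steep steps stand elsewhere: Mir487b at 24995 and 21228 CPM is followed by Mir539 at 57.2 and 46.8 CPM, and Mir369 stands between Mir412 and Mir410.

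Mir487b (ENSMUSG00000076219.1, chr12:109727333-109727414, outside the annotated exons and introns of Mirg) had 75149 counts in replicate 1 and 95701 in replicate 2. These were 24995 and 21228 CPM, a mean of 23112 ± 2664, the 11th highest level of all genes. Replicate 1 was the higher library. Mir369 (chr12:109743418-109743496, across an exon edge of Mirg) had 24425 and 32887 counts, or 8124 and 7295 CPM, and ranked 23rd of all genes at 7709 ± 586 CPM. miR-369-3p is known, with miR-496 and miR-543, to repress N-cadherin and to favour the birth of neurons from progenitors. Mir543 (chr12:109717258-109717333, upstream of Mirg) was at 706 and 615 CPM from 2122 and 2772 counts, a mean of 660 ± 64.3. Mir496a, in an intron of Mirg, was at 224 ± 29.0 CPM, so the members of this trio spanned the level range from second to 16th in the cluster.

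Mir382 (chr12:109733771-109733846, across an exon edge of Mirg) was the third member, with 16734 and 27048 counts. Its 5566 and 6000 CPM made it 1 of the few higher in replicate 2. Mir411 (chr12:109710175-109710256, upstream of Mirg) had 14594 and 19611 counts, or 4854 and 4350 CPM, a mean of 4602 ± 356. Mir379 (chr12:109709060-109709125), the first hairpin of the cluster, had 5032 and 7505 counts. Its 1674 and 1665 CPM (1669 ± 6.32) differed by less than the counting interval of either library.

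Members known for roles in dendrites and synapses ran from 3527 CPM for Mir381 in replicate 1 down to under 100 CPM for Mir495. Mir134 (chr12:109734139-109734209, in an exon of Mirg), whose product limits the size of dendritic spines through Limk1, had 4014 and 6098 counts. These were 1335 and 1353 CPM, a mean of 1344 ± 12.4, and their counting intervals overlapped. Mir381 (chr12:109726822-109726896, upstream of Mirg) and Mir329 are needed together with Mir134 for activity-dependent growth of dendrites. Mir381 had 10604 and 14445 counts, or 3527 and 3204 CPM, and Mir329 was far lower at 103 and 128 CPM, a mean of 116 ± 17.2. Mir541 (chr12:109742409-109742498, in an intron of Mirg), known for a brake on neurite outgrowth, had 10454 and 14420 counts, or 3477 and 3199 CPM. Its range, and its counting interval in each library, overlapped that of Mir381, so their order is not set. Mir485, in an exon of Mirg, acts on the synaptic vesicle protein Sv2a and stood at 277 ± 11.1 CPM. Mir495, known to repress the growth factor Bdnf, stood at 94.4 ± 7.00 CPM.

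The other members given in full were Mir154, Mir323 and Mir300. Mir154 (chr12:109738433-109738498, in an intron of Mirg), which gives its name to the mir-154 family, had 3230 and 4501 counts, or 1074 and 998 CPM. Mir323 (chr12:109712508-109712593, upstream of Mirg) had 2584 and 4037 counts, or 859 and 895 CPM, slightly higher in replicate 2. Mir300 (chr12:109724313-109724391, upstream of Mirg) had 2128 and 3164 counts, or 708 and 702 CPM. Its 3p arm is the near copy of miR-381-3p shown above, and its hairpin was at 705 ± 4.21 CPM against 3366 ± 228 CPM for Mir381.

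**Figure D2:**
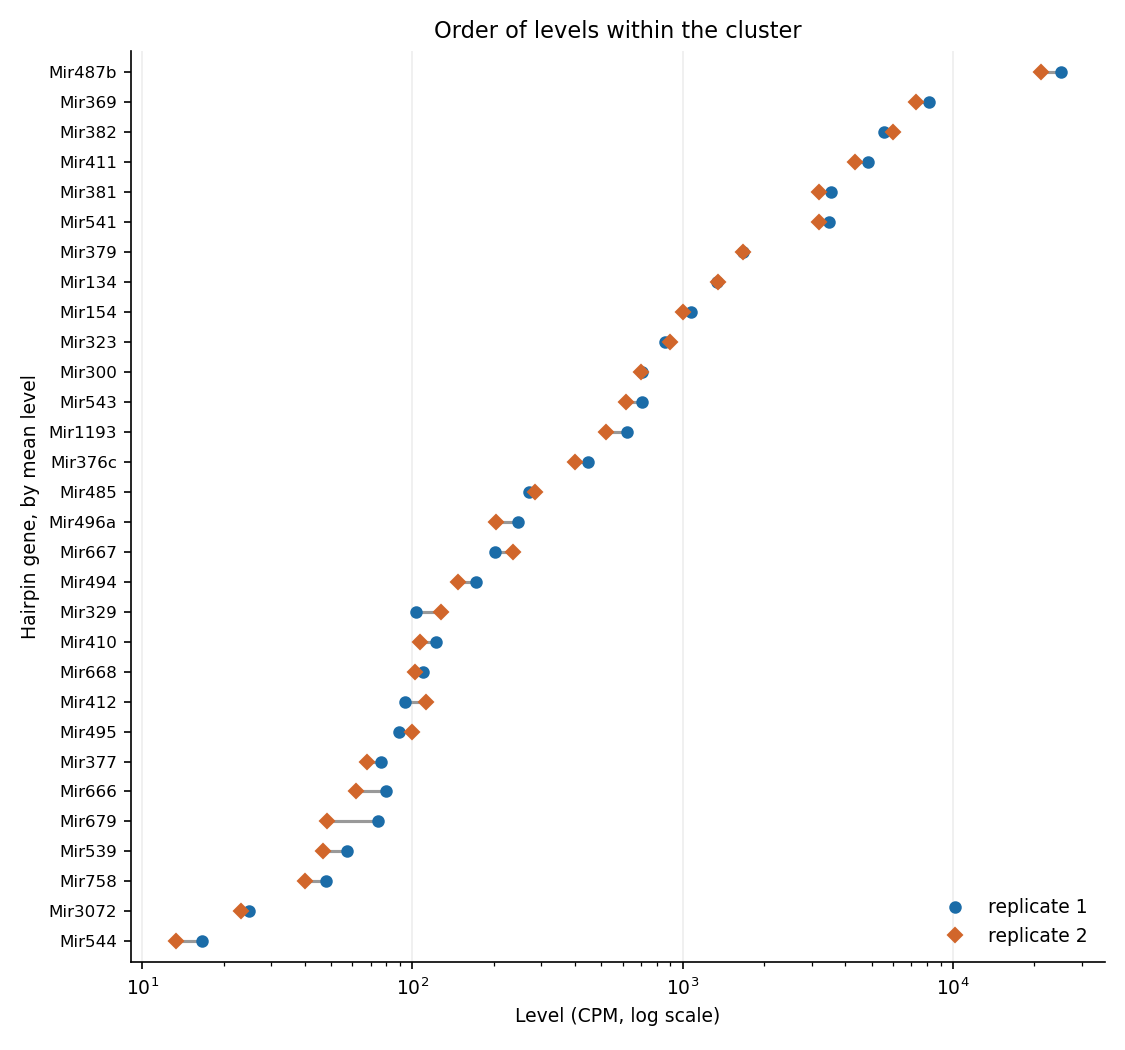
Level (CPM, log scale) of each detected hairpin in order of its mean, with circles for replicate 1, diamonds for replicate 2 and a grey line for the range. Ranges of adjacent ranks are separate at the top down to Mir411 and overlap from Mir329 to Mir495, near 100 CPM.

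Among the remaining members that share a seed, Mir1193 was at 571 ± 74.3 CPM, Mir494 at 160 ± 17.4 CPM, Mir410 at 114 ± 11.7 CPM and Mir758, a known repressor of the cholesterol transporter Abca1, at 44.0 ± 5.48 CPM. Mir376c, of a family known for editing of its RNA from adenosine to inosine, was at 422 ± 32.2 CPM. Between 50 and 250 CPM also stood Mir667 (218 ± 24.0), Mir668 (106 ± 5.62), Mir412 (103 ± 12.9), Mir377 (72.1 ± 6.25), Mir666 (71.0 ± 12.9), Mir679 (61.5 ± 18.9) and Mir539 (52.0 ± 7.36). The lowest detected members were Mir3072, at the far end of the cluster, with 24.1 ± 1.17 CPM and Mir544 with 15.0 ± 2.35 CPM. Of the 29 adjacent ranks in the order of levels, 17 had ranges that did not overlap and 12 had ranges that did. A range spans both libraries, so overlap does not mean that the order differed within a library. Mir543 and Mir1193 had overlapping ranges, yet Mir543 was the higher in replicate 1 (706 against 624 CPM) and in replicate 2 (615 against 519 CPM). Each range overlapped the next from Mir329 through Mir410, Mir668 and Mir412 to Mir495, and again from Mir377 through Mir666, Mir679 and Mir539 to Mir758.

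The 4 members under the threshold were Mir1197 with 5 and 7 counts, Gm27379 with 2 and 0, and Mir654 and Mir453 with 0 in both libraries. With 0 counts, a level of up to 3 counts is still possible, or 0.998 CPM and 0.665 CPM in replicates 1 and 2. Mir453, whose seed is that of miR-496a-5p, was therefore not detectable at this depth beside Mir496a with 736 and 919 counts. GENCODE M21 places 39 plus-strand microRNA genes in the window, and 5 of them, Mir299a, Mir380, Mir376b, Mir376a and Mir409, had no row in the tables. Of the members, 4 hold a stretch of at least 20 nt that another hairpin has too, which can move reads to the multimapping class. Mir376c shared 12 of its 67 such stretches and Mir487b 1 of 63, both with Mir376b, and Mir411 and Mir758 shared 2 with each other. The values of these 4 are uncertain to that extent.

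Hairpins next to each other often differed widely. Over the 29 pairs of adjacent detected hairpins, a median gap of 1049 nt apart, the median fold between neighbours was 4.77. In 8 pairs it was over 10-fold in both libraries and in 2 pairs under 2-fold in both. The pairs pass over members under the threshold and genes without a row, so some are not neighbours in the genome. Mir541 and Mir412, 37.1-fold and 28.6-fold apart and among the 8, have the Mir409 locus between them. In each of the 29 pairs the same neighbour was the higher in both libraries. Mir487b was 437-fold above Mir539 in replicate 1 and 454-fold in replicate 2 (445 ± 11.8), 714 nt apart. Mir323 was 17.9-fold and 22.3-fold above Mir758, 216 nt apart.

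The steepest steps over the shortest gaps were at the Mirg end, where Mir369 stands between 2 low neighbours. The 3 hairpins are shown in genomic order, from RefSeq on GRCm38.p6, plus strand, with the mature arms in capitals. Mir412 lies at chr12:109743289-109743368 and Mir410 at chr12:109743715-109743795.
Mir412: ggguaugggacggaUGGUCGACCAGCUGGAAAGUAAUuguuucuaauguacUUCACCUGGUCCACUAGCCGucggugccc
Mir369: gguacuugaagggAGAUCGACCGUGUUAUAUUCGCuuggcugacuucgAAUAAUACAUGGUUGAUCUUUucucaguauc
Mir410: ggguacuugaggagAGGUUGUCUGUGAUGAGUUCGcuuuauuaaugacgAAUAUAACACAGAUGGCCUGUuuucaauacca
Mir412 had 282 and 505 counts, or 93.8 and 112 CPM, and Mir410 had 369 and 479 counts, or 123 and 106 CPM. Mir369 was 86.6-fold and 65.1-fold above Mir412, 49 nt away, and 66.2-fold and 68.7-fold above Mir410, 218 nt away. The neighbours' own ranges overlapped, and both were far below that of Mir369 in each library. The 3 hairpins are close in length, at 80, 79 and 81 nt.

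Rank correlations of level with simple features of the hairpins were weak. Across the 30 detected members Spearman's rho of level with distance from Mir379 was -0.03 in replicate 1 and -0.05 in replicate 2. It was -0.19 and -0.18 with the GC content of the hairpin, which ran from 29.1% to 72.3%. With the predicted folding energy per nt it was 0.11 and 0.14, and with hairpin length 0.01 and 0.03. These are across genes of the same libraries, genes are not independent replicates, and the values are descriptions. The annotated Mirg gene (chr12:109729764-109749460, plus strand) holds 13 of the members, of which 4 lie in exons, 5 span an exon edge and 4 lie in introns. Those 13 summed to 20131 ± 547 CPM and the 21 members upstream of it to 36817 ± 3421 CPM, the latter including Mir487b.

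The libraries differed little in most members. On the log2 scale of replicate 2 over replicate 1, scaled by trimmed-mean (TMM) library sizes, the median of the 30 detected members was -0.16, and over all 356 detected genes it was 0.01. The members were lower in replicate 2 in 22 of 30 cases and higher in 8, where 49.4% of all detected genes were lower. Beyond 1.5-fold, 1 member was lower (5.62% of all detected genes) and 0 were higher (4.21% of all). The exact 95% counting interval of the ratio lay wholly below 0 for 15 members (25.3% of all detected genes) and wholly above 0 for 4 (25.3% of all), which were Mir329, Mir667, Mir382 and Mir412. The SD of the log2 ratios was 0.20 over the members and 0.39 over all detected genes, with 1 library on each side and no test. Counting error is larger at low counts, and the median level was 251 CPM for the members and 166 CPM for all detected genes. The SDs are therefore not like for like, and the part of counting error in them was not tested.

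Mir679, the member beyond 1.5-fold, had 225 counts in replicate 1 and 217 in the deeper replicate 2, or 74.8 and 48.1 CPM. Its log2 ratio was -0.65 with a counting interval from -0.93 to -0.37. Its neighbours at 174 and 20 nt, Mir494 and Mir1193, had ratios of -0.24 and -0.28. The ratio of Mir487b was -0.25 (interval -0.26 to -0.23) and that of Mir382 was 0.10 (0.07 to 0.12), so the highest members did not keep a fixed proportion between the libraries beyond counting error. The sum over members upstream of Mirg had a log2 ratio of -0.20 and the sum over those in Mirg -0.07. Mir10a and Mir10b had ratios of 0.29 and 0.22, Mir126a of -0.13 and Mir451a of -1.42, and the part of tissue makeup in the ratios was not tested.

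**Figure D3:**
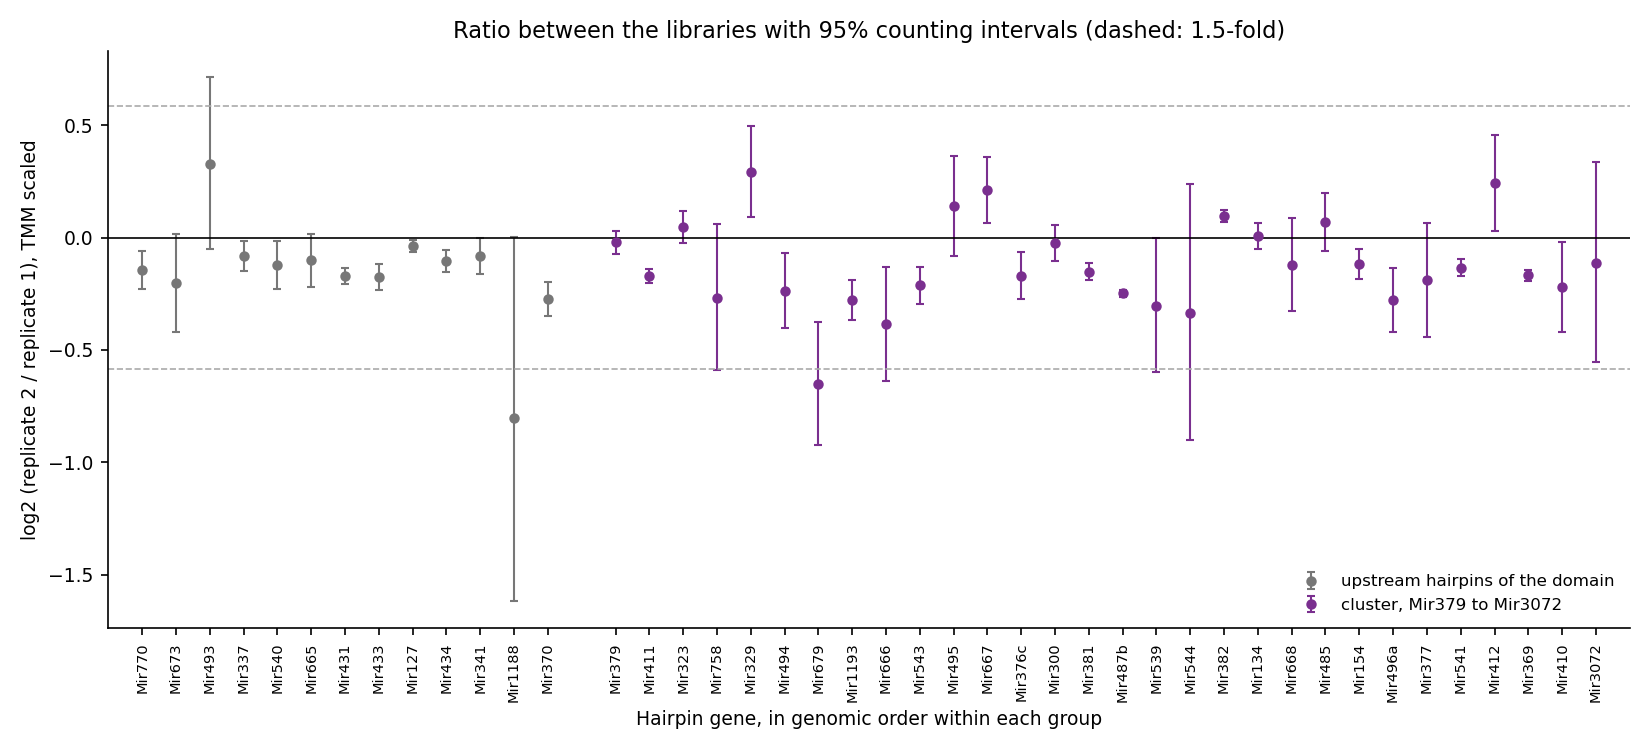
Log2 ratio of replicate 2 over replicate 1, TMM scaled, of each detected hairpin in genomic order, with bars for the exact 95% counting interval, purple for the cluster and grey for the upstream hairpins of the domain. Of the cluster 22 of 30 and of the upstream hairpins 12 of 13 lie below 0, and Mir679 at -0.65 is the only cluster member beyond the dashed 1.5-fold lines.

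The cluster was set beside the other plus-strand microRNA genes between Dlk1 and Dio3, which lie upstream of it around Meg3, the antisense strand of Rtl1 and Rian. Of those 19 rows 13 were detected, with sums of 17550 and 16463 CPM (17007 ± 769), so the cluster held the larger share of the domain's counts in both libraries. Their highest members were Mir127, which lies antisense to Rtl1 and represses it, at 6490 ± 83.0 CPM, Mir431 at 3321 ± 256 CPM and Mir434 at 1927 ± 87.2 CPM. The upstream hairpins were lower in replicate 2 in 12 of 13 cases, with a median log2 ratio of -0.12.

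The spread of levels inside the cluster was compared with that in the upstream hairpins and in a pair of other hairpin clusters. The highest detected member of the cluster was 1503-fold above the lowest in replicate 1 and 1595-fold in replicate 2 (1549 ± 65.1). In the upstream group the ratio was 886 ± 324, and 2899 in replicate 2 taken alone, where Mir3070a with 10 counts passed the minimum. In the X-linked Mir322 to Mir450 cluster it was 266 ± 41.7 over 5 detected rows, and 2220 in replicate 1 taken alone, where Mir450-1 with 12 counts passed. In the Mir17hg precursor, which carries the growth-promoting mir-17 family, it was 3504 ± 807 over 6 hairpins with 57047 ± 2678 CPM in sum. Its lowest hairpin, Mir19b-1, had 36 and 41 counts. Mir19b-1 and Mir450-1 are copies of multi-copy microRNAs, whose multimapping reads were left out of the counts, so both rows may read low. With a minimum of 50 counts the ratio was 554 ± 80.0 in Mir17hg, 196 ± 35.1 in the upstream group and 1549 ± 65.1 in the cluster. The cluster kept its value only because its lowest member, Mir544, had exactly 50 counts in replicate 1. Whether the cluster or Mir17hg was the wider thus turned with the minimum that sets the lowest hairpin, and no order between the groups is drawn. The median of the detected hairpins was 251 CPM in the cluster, 700 CPM in the upstream group, 3298 CPM in Mir17hg and 180 CPM in the Mir322 to Mir450 cluster.

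**Figure D4:**
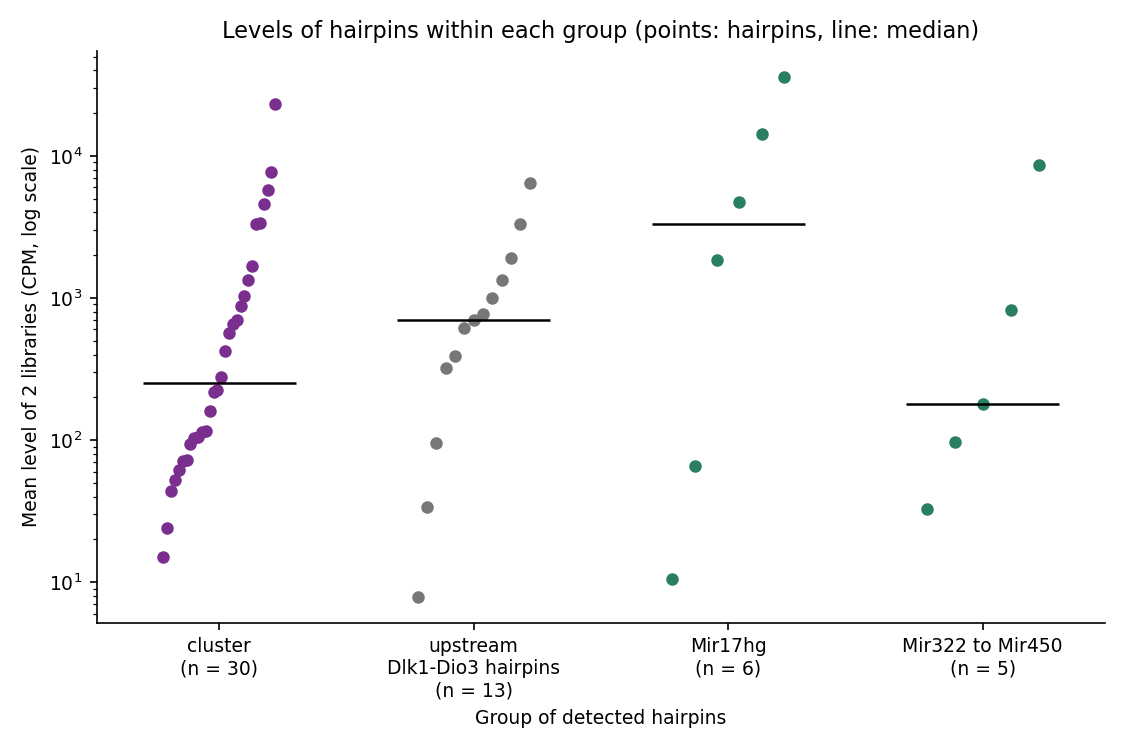
Mean level of both libraries (CPM, log scale) of each detected hairpin in the cluster, the upstream hairpins of the domain, Mir17hg and the Mir322 to Mir450 cluster, with points for hairpins and a line for the median. The cluster runs from 15.0 to 23112 CPM, and Mir17hg, with 6 hairpins, from 10.5 to 36088 CPM. The lowest of Mir17hg, Mir19b-1, is multi-copy and may read low because multimapping reads were left out.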

How the data were processed

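MicroRNA-seq of RNA in a size range below 30 nt was run on 2 hindbrain libraries, per the labels. The authors deposited raw read counts per microRNA gene, on mm10 and GENCODE M4 per the README text. For the aligner and counter, names and versions were not given in the sources used here. The README does not name the 3 count columns. The strand column with more counts was read as that of the annotation, since the remaining strand column held 1.88% and 1.90% of the either-strand gene counts. Its 4 summary rows held 51.0% and 52.5% of 6141045 and 9486700 reads, with multimapping reads at 33.9% and 34.5%, and stayed out of library sizes. Names and coordinates are from GENCODE M21, which matched 1894 rows. For 12 members the identifier version differed.

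CPM, exact Poisson intervals and exact Clopper-Pearson intervals of ratios (95%, counting error only) were computed with Python 3.11.15 and scipy 1.17.1, and folding energies with RNAfold 2.7.2. edgeR 4.0.16 in R 4.3.3 gave TMM sizes only, and DESeq2 1.42.0 gave the alternative size factors. Alternatives were scaling, strand column, denominator, count minimum (1, 50), members left out and replicates left out. The rule for the members uses position alone, and that rule and the lists were set with earlier results of these data known. Named were the 12 highest members in full, the other members by level, and the 3 highest upstream hairpins.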

Additional observations from a re-analysis of the deposited data

Results flagged for a closer look

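The opposite-strand column, which enters no comparison above, held counts in 4 rows of the window that are annotated on the minus strand. If the strand columns are assigned rightly, which rests on their totals, reads in that column lie on the plus strand. There each row overlaps a plus-strand microRNA gene without a row of its own. At the Mir409 locus it held 16995 and 23388 counts, a mean of 5420 ± 329 CPM, and at the Mir376a locus 10727 and 14772 counts, or 3422 ± 206 CPM. At the Mir380 locus it held 2780 and 3457 counts, or 846 ± 112 CPM, and at the Mir299a locus 1700 and 2386 counts, or 547 ± 25.6 CPM. Together these were 10236 ± 672 CPM. The annotated-strand column of the same rows held 5 and 9 counts at Mir299a and 0 at the others. The 34 members had 0 opposite-strand counts in both libraries.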

How the results depend on the processing

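No paired analysis was possible because there is 1 group. Under DESeq2 size factors, TMM sizes and either-strand counts, the sums of the cluster and of the upstream hairpins moved by less than 1 SD. Plain totals are the scaling of the main sums and leave them unchanged. TMM and DESeq2 sizes shift the libraries in opposite directions, so a mean over both can move little. Among these settings the share of counts (5.59%) and the number of detected members (30) were recomputed with either-strand counts only. With all reads as the denominator the sum was 27492 CPM, the share 2.75% and the upstream sum 8208 CPM. Without the 4 members that share 20 nt with another hairpin the sum was 28769 CPM and the share 2.88%, and without Mir487b alone 33836 CPM and 3.38%. The fold from highest to lowest member was 518 in both of those cases and 14351 with a minimum of 1 count. With the opposite-strand counts of the minus-strand rows added, an alternative chosen after seeing the data, the sum was 67183 CPM and the share 6.72%. With 1 replicate left out the sum ranged from 54142 to 59753.5 CPM, the share from 5.41% to 5.98%, the upstream sum from 16463 to 17550 CPM and the fold from 1503 to 1595, and 30 members were detected in each case. The median log2 ratio lay between -0.17 and -0.13 under its alternatives, with 1 member beyond 1.5-fold. Members lower in replicate 2 ran from 18 of 26 detected, without those that share 20 nt, to 24 of 31 with a minimum of 1 count. Of 100 values for single members and other groups 79 moved by less than their spread. The other 21 moved by more, 12 of them with the other denominator. Many of the 79 could hardly do otherwise. Leaving out 1 of the libraries always moves a mean of both by less than its SD, and plain totals leave member levels unchanged. Depth limits the lowest members most: Mir544 rests on 50 and 60 counts.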
